A study of Sus scrofa with 9 samples.

Results

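Developing back muscle of the pig was set against adult back muscle for every microRNA (miRNA) arm measured in the series, 495 arms in 9 libraries. The developing side was 3 libraries of small RNA, 1 each from day-90 fetuses (E90), pigs at birth (day 0) and 30-day-old piglets. It is therefore 3 stages of 1 library each, with no replicate of any stage. The adult side was 6 libraries, 3 from pigs 180 days old and 3 from pigs 7 years old. All animals were Jinhua females, 15 in all, untreated as far as the labels say, and the tissue was the longissimus dorsi, the long muscle beside the spine. Which pigs went into which library was not stated where it could be read here. The p-values therefore reflect variation among libraries alone. Part of it is between ages within a side, and part can be technical. The members are 100 conserved arms, named after known families, and 395 putative new arms, named PN here with the start of their entry. Levels are in RPM, the copies found in every 1000000 high-quality reads, and those reads numbered from 3476614 to 5042191 in the developing libraries and from 3720989 to 12259667 in the adult ones. The tables' copies made up 1.04% to 2.70% of the reads in developing libraries and 0.147% to 0.322% in adult ones. The other reads were not analysed here, and since no source states that the tables cover every pig miRNA, sums, ranks and shares refer to the listed arms alone.

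A miRNA is cut from a hairpin precursor, and each side of the hairpin, the 5p and the 3p arm, can give a mature strand. The mature strand guides a silencing complex to messenger RNAs mainly through its seed, bases 2 to 8, so 2 arms with 1 seed can share targets and a start shifted by 1 base changes the seed. In skeletal muscle, miRNAs take part in the passage from dividing myoblasts to fibres. A large group of miRNAs lies in the imprinted DLK1-DIO3 region, and these miRNAs are transcribed from the maternal chromosome. That region is known in muscle from the callipyge sheep, whose overgrown hindquarters map to it.

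The sequences below belong to the arms on which the comparison turns, as the deposited tables list them, with the seed in capitals. The first are arms that were higher in developing muscle, among them the miR-485-3p and miR-539-3p pair, which shares its seed.
miR-26b-5p: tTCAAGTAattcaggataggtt
miR-431-5p: tGTCTTGCaggccgtcatgc
miR-409-3p: gAATGTTGctcggtgaacccct
miR-655-3p: aTAATACAtggttaacctcttt
miR-660-5p: tACCCATTgcatatcggagttg
miR-485-3p: gTCATACAcggctctcctctct
miR-539-3p: aTCATACAaggacaatttcttt
miR-376d-3p: aTCATAGAggaaaatccacat
miR-454-3p: tAGTGCAAtattgcttatagggt
PN-1631-3p: tGGTGCCTgacgtcttggcagt
PN-24885174-5p: tTCAAGTAacccaggataggctt
PN-24885174-5p carries the seed of miR-26b-5p. The next are shown because the 5p and 3p products of miR-411c went opposite ways and because PN-7444591-3p was the most abundant putative new arm that was lower in developing muscle.
miR-411c-5p: gGTTGATCagagaacatacatt
miR-411c-3p: tGTATGTCaactgatccacagt
PN-7444591-3p: tTTGTTGGctcctctgaagtga

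Developing muscle held more of the measured miRNAs per read than adult muscle. All arms together summed to 26996 RPM at E90, 19146 at day 0 and 10426 at day 30, against 1472 at the lowest, 2262 at the median and 3225 at the highest of the 6 adult libraries. The geometric mean was 8.05-fold higher in developing libraries. Conserved arms summed to 23512, 16747 and 9155 RPM in the 3 developing libraries in order of age, against 1162 to 2509 RPM in adult ones, an 8.86-fold difference. Putative new arms summed to 3484, 2399 and 1272 RPM in developing libraries, against 299 to 716 RPM in adult ones, a 4.94-fold difference. The groups did not overlap in any of these sums, and the lowest developing library was always day 30. The two-sided exact permutation test over the 84 possible groupings gave p = 0.0119 for each, the smallest it can give (adjusted p = 0.0179 over 6 measures). With 1 mean per stage, 3 developing against 2 adult stages, the smallest possible exact p is 0.1, and that was the value for all 3 sums. In bulk tissue, fewer cells of a type and less RNA per cell cannot be told apart, and RPM values also move with whatever else was in the library.

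**Figure D1:**
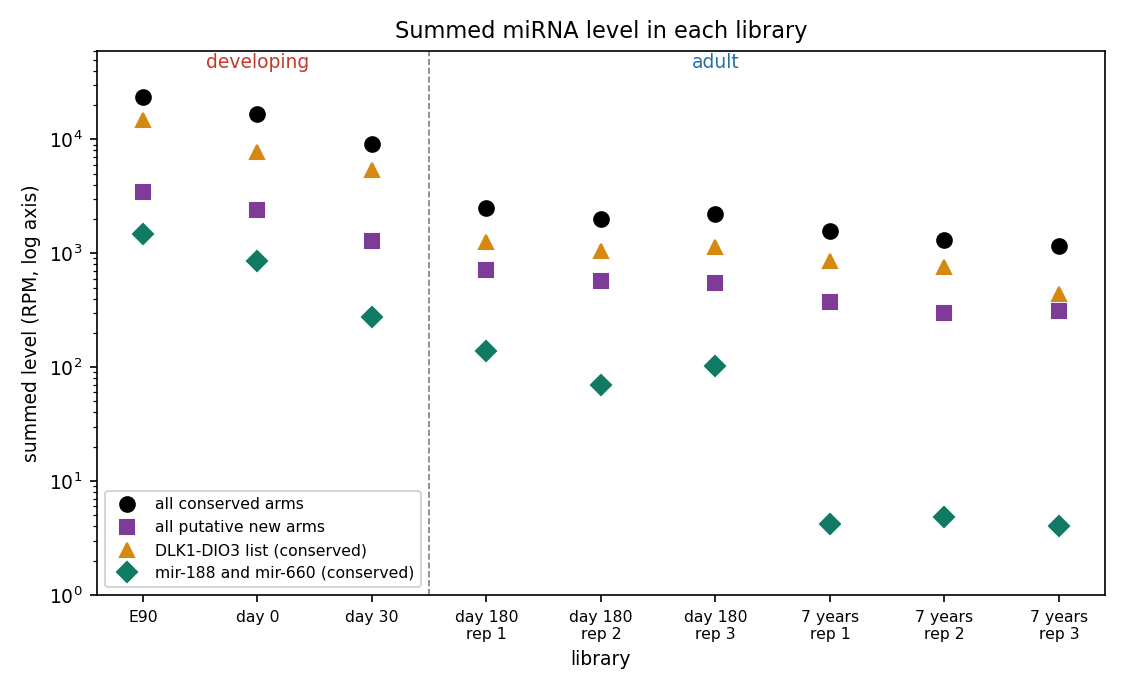
Summed level (RPM, log axis) of 4 sets of arms in each of the 9 libraries, developing left of the dashed line and adult right of it; each point is 1 library. In each set every developing library lies above every adult one, and for mir-188 and mir-660 the 7-year libraries lie near 4 RPM.

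More arms were also abundant in developing muscle. Arms of at least 10 RPM numbered 46 at E90, 50 at day 0 and 40 at day 30, against 14 to 26 in adult libraries (exact permutation p = 0.0119, adjusted p = 0.0179). The share of copies in the 10 most abundant arms did not differ detectably, though the shares of miR-411c-5p and PN-1631-3p shifted, as given below. The 10 most abundant arms held 90.1%, 87.7% and 85.7% of the copies in developing libraries, against 82.0% to 90.2% in adult ones (exact permutation p = 0.310). Of the 100 conserved arms, 33 were listed in developing libraries alone, 3 in adult libraries alone and 64 on both sides. The 33 were scarce, at most 30.5 RPM in any library. Of the 395 putative new arms, 111 were listed in developing libraries alone, 202 in adult libraries alone and 82 on both sides, and 223 were listed in 1 library only. Some of these entries overlap others at the same locus, and copies of 1 RNA can stand under different entries in different libraries. With entries that share a locus and at least 16 bases joined, 329 were left, 87 listed in developing libraries alone, 152 in adult libraries alone and 90 on both sides, and 169 in 1 library only.

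Across arms, developing libraries were compared with adult ones by edgeR's quasi-likelihood test, with the high-quality reads as library size and p-values adjusted over all arms tested. The fit took libraries of different ages on the same side as replicates, so its spread includes differences between ages. Only 91 arms had enough copies for the test, 43 conserved and 48 putative new. An arm abundant on 1 side alone could pass that filter, so the shares that follow describe the tested arms and not all 495. Per read, 48 arms were higher in developing muscle (52.7% of those tested) and 11 were lower (12.1%) at an adjusted p under 0.05, together 64.8%. A second scaling, TMM, sets the bulk of the tested arms equal between libraries and moved log2 fold changes down by a median of 1.66. Under TMM 35 arms were higher (38.5%) and 19 lower (20.9%), together 59.3%. The 35 and 11 of the 19 had the same call per read, and no arm was called in opposite directions. Refitted per read, the count of lower arms was 4 without E90, 6 without day 0, and 7 without day 30 or without day 180 replicate 2. The median log2 fold change over the 91 arms was 2.62 per read and 0.75 with TMM. Of the entries called, 6 higher and 6 lower ones overlap another entry, and 3 of the higher and 4 of the lower were not called once joined. With overlapping entries joined, 48 arms were higher and 10 lower of 90.

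The 2 sides were separate in level for nearly all higher calls, but for only 4 of the 11 lower ones. The called arms were picked by these same levels, so the gaps given here describe them and add no support. All 3 developing libraries lay above all 6 adult ones for 48 tested arms (52.7%), among them 47 of the 48 called higher (the other was miR-2904-3-3p), and below them for 4 (4.4%), all called lower. Among 42 arms called higher and listed in some adult library, the lowest developing level was a median of 4.45 times the highest adult level. It was over 2-fold for 34 arms and over 10-fold for 11. Within the developing side E90 was the highest library for 23 of the 48 higher arms, day 0 for 15 and day 30 for 10, and 19 went down in order of age. Within the adult side the day 180 mean exceeded the 7-year mean for 41 of the 48, and 25 had no copy listed in any 7-year library. This was not particular to the higher arms. The day 180 mean was also above the 7-year mean for 8 of the 11 lower arms. The sum of all arms averaged 2856 RPM at day 180 and 1679 RPM at 7 years. Of all 100 conserved arms, 59 had no copy listed at 7 years.

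**Figure D2:**
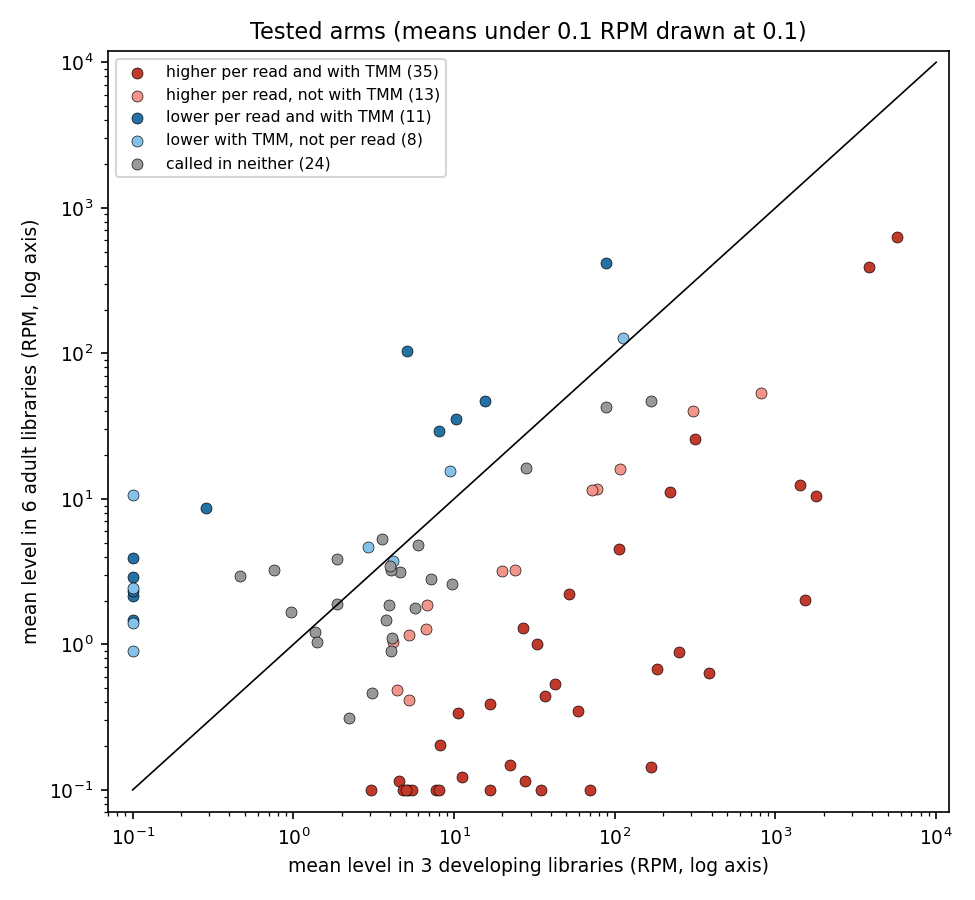
Mean level in the 3 developing libraries (x axis, RPM, log) against the mean in the 6 adult libraries (y axis, RPM, log) for the 91 tested arms, with equal levels on the line. The 48 arms higher per read lie below the line, 13 of them (pale red) not called with TMM, and the 11 lower arms (dark blue) lie above it.

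Among conserved arms, 31 were higher and 3 lower of the 43 tested. The most abundant on both sides was miR-26b-5p, of the miR-26 family, whose member miR-26a promotes differentiation of mouse myoblasts by repressing the Polycomb methyltransferase Ezh2. It stood at 6477 RPM at E90, 7522 at day 0 and 3184 at day 30, against a lowest value of 411, a median of 629 and a highest of 802 RPM in adult libraries. Every developing library was thus above every adult one, with day 30 closest to them. The log2 fold change was 3.19 ± 0.41 (SE, edgeR adjusted p = 0.000213), and 1.32 with TMM (adjusted p = 0.00291). Its share of the copies did not follow the level. It held 23.99%, 39.3% and 30.5% of the copies in developing libraries and 24.9% to 40.6% in adult ones.

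The DLK1-DIO3 cluster supplied 28 conserved arms by family number, 18 of them with enough copies to test. Of these 17 were higher and 1 was lower per read, 16 and 1 with TMM, and their median log2 fold change was 7.07 (5.35 with TMM). Among the 25 conserved arms tested outside the list, 14 were higher and 2 lower, and their median was 2.14 (0.53 with TMM). Over all 28 members, including those not tested, every developing library lay above every adult one for 24, against 20 of the 72 other conserved arms. No adult library listed 9 of the 28, against 24 of the 72 others. No 7-year library listed 20 of the 28, against 39 of the 72 others. The list summed to 14940 RPM at E90, 7750 at day 0 and 5346 at day 30, against 440 at the lowest, 957 at the median and 1250 at the highest of the adult libraries. As a share of all copies it was 55.3%, 40.5% and 51.3% in developing libraries and 29.9% to 46.8% in adult ones (exact permutation p = 0.119). The day 0 library was the only developing one within the adult range. Leaving it out for that reason fixes the unadjusted exact permutation p at 0.0357, the smallest that the remaining libraries allow. That value therefore adds no evidence of a difference in share. Of the 28 arms 25 have no named chromosome in the tables and are placed in the cluster by name alone.

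miR-431-5p was the most abundant member by its mean over the 9 libraries, although miR-409-3p was higher at E90 and miR-411c-5p in all 3 libraries of 7 years. miR-431 represses Pax7, the transcription factor of satellite cells, in the mouse, and its precursor lies on chromosome 7 of Sscrofa10 at 132097559 to 132097659 on the plus strand. It stood at 4527 RPM at E90, 3931 RPM at day 0 and 3006 RPM at day 30. Adult libraries ran from 110 through a median of 367 to 724 RPM, the 3 values of day 180 above the 3 of 7 years. The groups did not overlap (edgeR log2 fold change 3.29 ± 0.61 SE, adjusted p = 0.000975, 1.61 with TMM). In 7 years replicates 2 and 3 the sequence listed for it has another seed and is not in its precursor. How much of the 185 and 110 RPM given there was miR-431-5p therefore cannot be told. The adult range and the fold change include these 2 values. Leaving miR-431-5p out of every library gave 47 higher and 11 lower arms.

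Members of the cluster differed in when they were highest. miR-409-3p stood at 4799 RPM at E90 but at 405 and 186 at day 0 and day 30, against 14.1 to 27.7 RPM at day 180 and no listed copy at 7 years. It was thus a fetal arm above all, and its call rests on that library. Its log2 fold change of 7.41 ± 1.98 (SE, edgeR adjusted p = 0.00674) was 4.80 without E90, with an adjusted p of 0.0561. miR-412-5p and miR-485-3p also went down in order of age. miR-412-5p stood at 659, 81.9 and 16.1 RPM in developing libraries, against at most 3.51 RPM in adult ones. miR-485-3p stood at 884, 245 and 28.2 RPM in developing libraries, against at most 1.55 RPM in adult ones. miR-539-3p was lowest at E90 among them. It stood at 48.8 RPM at E90 and at 513 and 389 RPM at day 0 and day 30, against 15.3 to 37.0 RPM in adult libraries. It shares its seed with miR-485-3p, so 2 arms of the same seed were highest in different developing libraries. miR-377-3p was highest at day 30, with 181, 82.6 and 402 RPM in developing libraries, against 3.22 to 26.8 RPM in adult ones.

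miR-655-3p had the smallest adjusted p among the arms named here. It stood at 1994, 1550 and 721 RPM in developing libraries, against 15.96 to 16.4 RPM at day 180 and 7.79 to 9.46 RPM at 7 years. Both adult ages were tight and far below day 30 (edgeR log2 fold change 6.83 ± 0.57 SE, adjusted p = 7.92e-06, 5.01 with TMM). miR-376d-3p had the largest fold change of them. It stood at 261, 221 and 24.2 RPM in developing libraries, against 0.245, 0.287 and 0.332 RPM at day 180, each value being 3 copies, and no listed copy at 7 years (edgeR log2 fold change 9.87 ± 1.11 SE, adjusted p = 0.0001). miR-376b-3p, with the same seed, was also higher. miR-544-5p stood at 510, 256 and 152 RPM in developing libraries, against 20.7 to 70.8 RPM in adult ones, and was called per read (edgeR log2 fold change 2.94, adjusted p = 0.00124) but not with TMM (1.14, adjusted p = 0.0518).

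**Figure D3:**
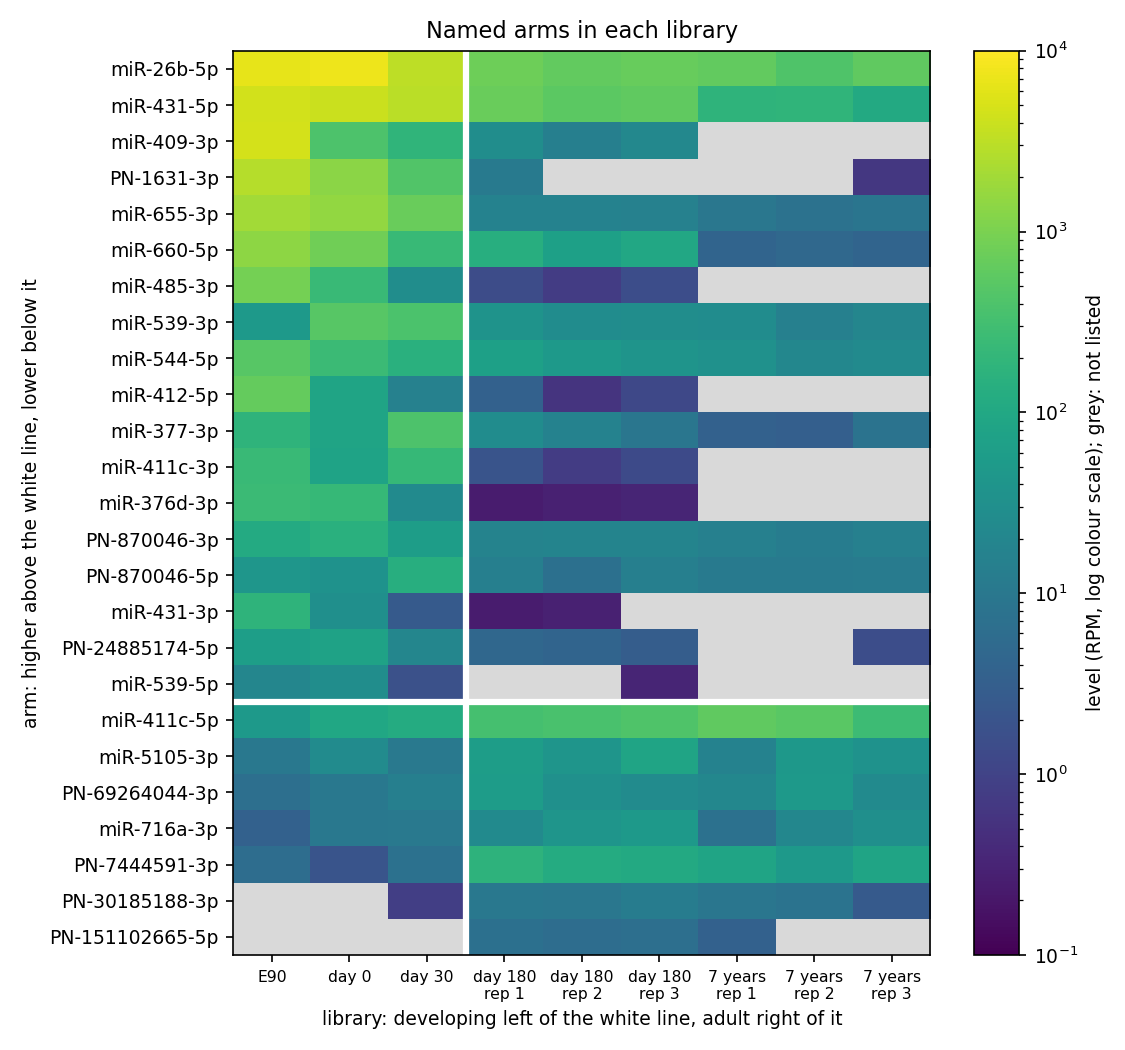
Level (RPM, log colour scale) of 25 named arms in each library, developing left of the vertical white line and adult right of it, arms higher in developing muscle above the horizontal line and lower ones below it. Grey cells had no listed copy, and miR-409-3p, miR-485-3p, miR-412-5p, miR-411c-3p, miR-431-3p, miR-376d-3p and miR-539-5p are grey in all 3 libraries of 7 years. Overlapping putative new entries are drawn unjoined.

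miR-411c broke the pattern of the cluster, since its arms moved in opposite directions. miR-411c-3p stood at 246, 78.3 and 223 RPM in developing libraries, against 0.767 to 1.96 RPM at day 180 and no listed copy at 7 years (edgeR log2 fold change 7.96 ± 1.26 SE, adjusted p = 0.0006). miR-411c-5p stood at 51.0, 93.3 and 119 RPM in developing libraries, against 265 at the lowest, 398 at the median and 603 at the highest of the adult libraries (edgeR log2 fold change -2.25 ± 0.57 SE, adjusted p = 0.00487). Neither arm's groups overlapped. With TMM the 5p arm was at -4.03 (adjusted p = 0.000297) and the 3p arm at 6.44 (adjusted p = 0.000962), so both calls held in either scaling. The 5p arm held 0.189%, 0.487% and 1.14% of all copies in developing libraries and 10.2% to 32.2% in adult ones. It ranked 24th, 16th and 14th there and between 1st and 3rd in every adult library.

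The balance of 2 arms of 1 hairpin within a library does not depend on scaling. Of 45 hairpins with enough copies to describe, 29 had enough libraries on each side to test by exact permutation. In 7 of them the 5p share passed the threshold (exact permutation p = 0.0119, adjusted p = 0.0493 over 29). That p is the smallest possible with 84 splits and by itself means that the sides did not overlap. Of all 29 tested hairpins, 13 did not overlap. For miR-655, among the 7, depth set the adult value, as given below. For miR-411c the 5p share was 17.2% at E90, 54.4% at day 0 and 34.8% at day 30, against 99.4% to 100% in the 6 adult libraries. The exact 95% counting interval of the day 0 value ran from 50.8% to 57.9%, and of the lowest adult value from 99.1% to 99.6%. Both arms thus gave many copies in developing muscle, and nearly all copies were of the 5p arm in adult muscle.

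The miR-431 hairpin showed a smaller shift. The 5p share was 96.3%, 99.2% and 99.91% in developing libraries and 99.95% to 100% in adult ones. The exact 95% counting intervals of day 30 (99.84% to 99.96%) and day 180 replicate 2 (99.85% to 99.99%) overlap. The gap between these 2 nearest libraries is therefore within counting error. The intervals of E90 (up to 96.5%) and day 0 (up to 99.33%) lie below every adult one, of which the lowest starts at 99.46%. In 7 years replicates 2 and 3 the 5p copies carry the limit given above for their listed sequence. The 3p strand behind it, miR-431-3p, stood at 176, 31.3 and 2.59 RPM in developing libraries, against 0.245 and 0.287 RPM in 2 libraries of day 180 and no listed copy in the other 4 (edgeR log2 fold change 9.14, adjusted p = 0.000598). For PN-5388442, an entry on chromosome 5 of Sscrofa10 at 5388442 to 5388702, the 5p share was 32.99%, 44.3% and 48.2% in developing libraries and 19.8% to 29.7% in adult ones. Neither of its arms was called per read, and with TMM the 3p arm was lower in developing muscle. For PN-5388442 the counting intervals of E90 (29.2% to 37.0%) and 7 years replicate 2 (25.2% to 34.4%) overlap. miR-26b was among the 7 with a shift of less than 1 percentage point in the mean. Its counting intervals at day 0 (99.77% to 99.86%) and in 7 years replicate 2 (99.33% to 99.93%) overlap. For miR-655, also among them, depth sets the adult value. Adult libraries held 29 to 201 copies of the pair and none of the 5p arm, which allows a share of up to 1.82% to 11.9% (exact 95% limits), above the 0.0399% to 0.302% of developing libraries. A difference in its balance was therefore not detectable at this depth, which leaves 6 hairpins. The adjusted p of 0.0493 (exact permutation) needs all 7 tied hairpins. Without miR-655 the other 6 would not pass the threshold, so their shares are description. Among the 6, only miR-411c and miR-5105 kept the counting intervals of the nearest developing and adult libraries apart. For miR-5105 the 5p share was 56.0%, 55.9% and 78.2% in developing libraries and 23.6% to 29.6% in adult ones. The listed sequences of its arms overlap by 17 bases on the hairpin, and at day 30 the sequence listed for the 5p arm is another one, so that share compares overlapping products. For miR-716a the 5p share was 33.3%, 15.1% and 11.9% in developing libraries and 0% to 4.88% in adult ones. The counting intervals of day 30 (3.98% to 25.6%) and 7 years replicate 2 (1.34% to 12.0%) overlap. miR-330, singled out after its values were seen, had 46.8%, 44.0% and 57.1% in developing libraries and 87.8% to 91.6% at day 180. Its 7-year libraries held under 10 copies each, and the exact permutation p of 0.1 is the smallest that 3 against 3 allows.

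**Figure D4:**
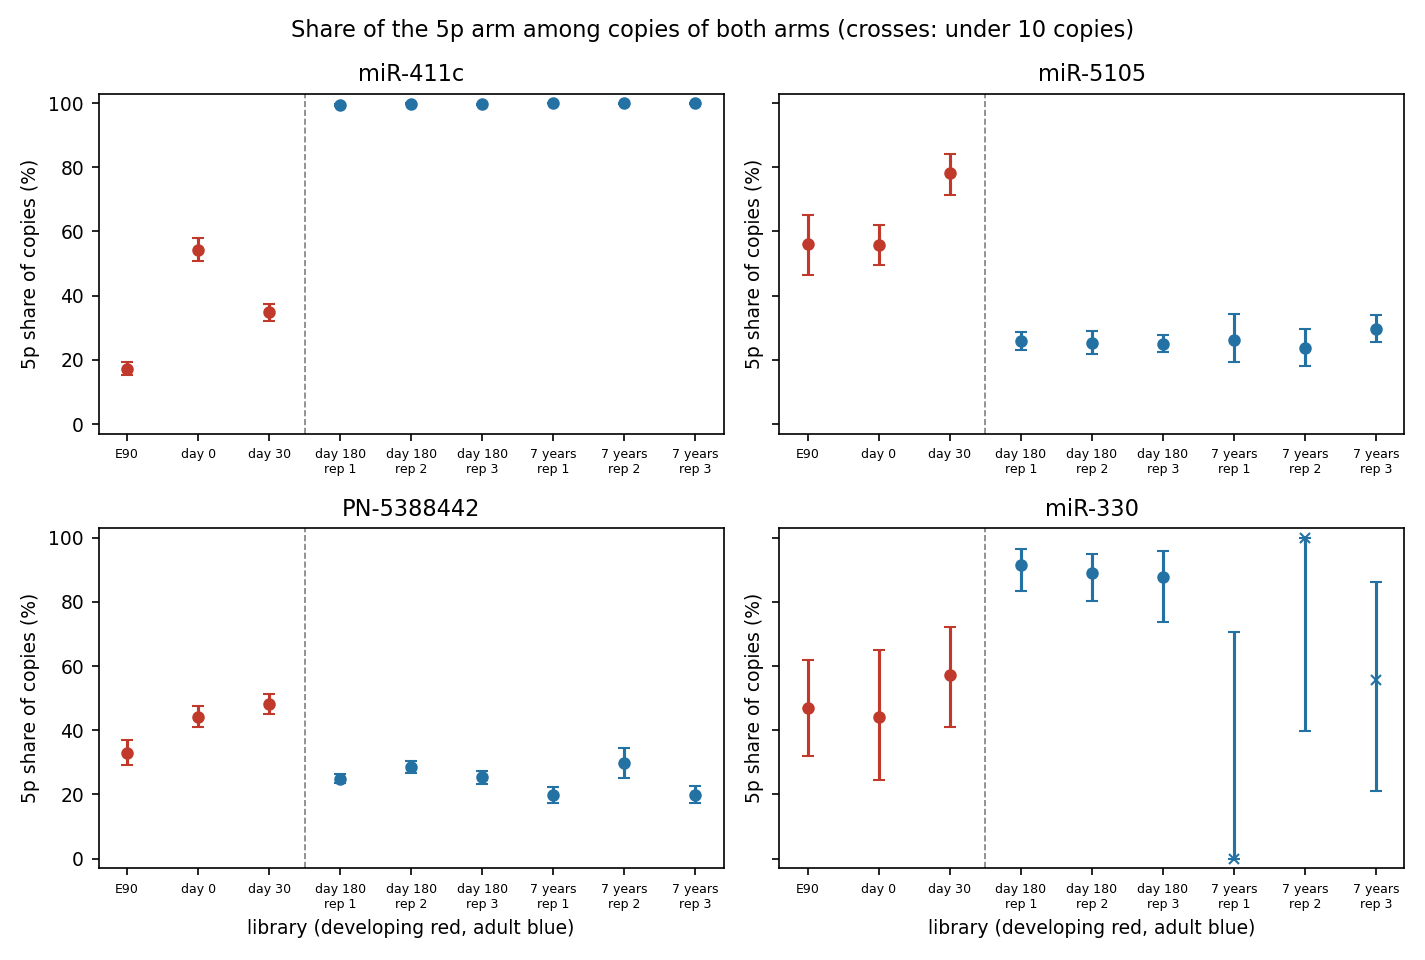
Share of the 5p arm among the copies of both arms (percent) of 4 hairpins in each library, developing (red) left of the dashed line and adult (blue) right of it, with exact 95% counting intervals; crosses mark libraries with under 10 copies of the hairpin. For miR-411c the 3 developing libraries lie between 17.2% and 54.4% and the 6 adult ones at 99.4% or above.

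Outside the cluster, the X-linked miR-188 and miR-660 hairpins were higher in developing muscle. In humans they belong to a group of miRNAs in an intron of the chloride transporter gene CLCN5. The hairpins lie on the plus strand of chromosome X of Sscrofa10, miR-188 at 48632378 to 48632485 and miR-660 at 48640809 to 48640903. miR-660-5p stood at 1402, 810 and 230 RPM in developing libraries, against 68.1 to 138 RPM at day 180 and 4.05 to 4.84 RPM at 7 years. Day 180 and 7 years lay further apart in ratio than day 30 and day 180. It was called per read (edgeR log2 fold change 3.94 ± 1.16 SE, adjusted p = 0.0114) and not with TMM (2.27, adjusted p = 0.0655). miR-188-5p stood at 63.1, 34.0 and 29.6 RPM in developing libraries, against 0.479 to 1.44 RPM at day 180 and no listed copy at 7 years (edgeR log2 fold change 6.16, adjusted p = 0.000975, 4.56 with TMM). All 3 arms of the pair were higher per read and 2 with TMM.

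The arms that share the miR-130 family seed had different calls. miR-454-3p stood at 43.4, 23.9 and 13.5 RPM in developing libraries, against 0.641 to 2.04 RPM in adult ones (edgeR log2 fold change 4.35, adjusted p = 0.000598, 2.56 with TMM). miR-301b-3p stood at 48.4, 10.5 and 12.9 RPM in developing libraries, against 0.639 to 7.18 RPM in adult ones. It was called per read (edgeR log2 fold change 2.86, adjusted p = 0.0110) but not with TMM (1.18, adjusted p = 0.204) or without E90 (1.84, adjusted p = 0.105). miR-301a-3p, whose hairpin neighbours that of miR-454 on chromosome 12, was listed in no developing library, against 34.2 and 23.2 RPM in day 180 replicates 1 and 2, 5.96 RPM in 7 years replicate 3 and no copy in the other 3 adult libraries. It missed the threshold per read (edgeR adjusted p = 0.0502) and was lower with TMM (adjusted p = 0.0287). It also passed per read without day 180 replicate 3, 7 years replicate 1 or 7 years replicate 2 (adjusted p = 0.0400, 0.0334 and 0.0406, edgeR). If no developing library held more than 3 copies, the developing mean was at least 14.9-fold lower than the adult mean.

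Markers of tissue and of other cell types were sparse. Of the muscle-enriched miRNAs, 4 arms were measured and none could be tested. They summed to 0.992 RPM at E90, 34.0 at day 0 and 14.4 at day 30, against 0 to 1.07 RPM in adult libraries. miR-208a-3p, from an intron of a cardiac myosin heavy chain gene, made up most of it, with 21.7 RPM at day 0, 7.77 RPM at day 30 and no copy at E90 or in any adult library. miR-133, miR-206, miR-499, let-7 and the endothelial miR-126 had no measured arm and were not analysed here, so the labelled tissue cannot be checked by them. The blood marker miR-223-3p, a miRNA of myeloid cells, stood at 2.58, 5.59 and 4.03 RPM in developing libraries and 0.959 to 7.57 RPM in adult ones. It was not called, and its estimate changed sign with the scaling (0.31 per read, adjusted p = 0.738, and -1.48 with TMM, adjusted p = 0.126, edgeR). Epithelial markers, 6 arms, summed to 13.3, 5.59 and 14.4 RPM in developing libraries and 0.806 to 2.20 RPM in adult ones. The sum of all arms was also higher in developing libraries, by 8.05-fold. No adult library listed 4 of the 6, against 33 of all 100 conserved arms. Of the 6 epithelial arms miR-141-3p alone was tested and was higher per read (edgeR log2 fold change 2.14, adjusted p = 0.0171) but not with TMM (0.53, adjusted p = 0.556). Leaving out day 0 or day 30 also ended that call, with adjusted p-values of 0.0587 and 0.144. The neural marker miR-219-3p was listed at E90 alone, at 2.58 RPM. The part of other cell types in the results was not tested.

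The conserved arms that were lower in developing muscle were miR-411c-5p and 2 arms of a block of 5 hairpins on the minus strand of chromosome 6 of Sscrofa10, at 866649 to 870961. miR-5105-3p stood at 10.1, 25.7 and 10.6 RPM in developing libraries, against a lowest value of 16.7, a median of 43.5 and a highest of 84.1 RPM in adult ones. miR-716a-3p stood at 3.57, 10.1 and 10.6 RPM in developing libraries, against a lowest value of 7.37, a median of 28.2 and a highest of 50.4 RPM in adult ones. The groups overlapped for both, through 7 years replicate 1. The log2 fold changes were -1.61 ± 0.65 (SE, edgeR adjusted p = 0.0460) and -1.86 ± 0.70 (SE, adjusted p = 0.0357), and with TMM -3.39 (adjusted p = 0.000962) and -3.57 (adjusted p = 0.0029). The per-read calls are fragile. Without the E90 library the adjusted p-values were 0.129 and 0.127, without day 180 replicate 2 they were 0.0623 and 0.0649, and without day 180 replicate 3 they were 0.0791 and 0.0669. miR-5105-3p also lost its call without day 30, day 180 replicate 1 or 7 years replicate 2, with adjusted p-values of 0.126, 0.0703 and 0.0600. miR-716a-3p also lost its call without day 0 or day 30, with adjusted p-values of 0.0823 and 0.0564. Within the block, 7 arms were tested, of which 2 were higher, 2 lower and 3 not called per read. The listed 5p and 3p sequences overlap by 17 bases for miR-5105, 11 for miR-2904-3, 9 for miR-6087 and 6 for miR-2887-2. Those of miR-716a do not overlap. Whether the products of this block are cut as miRNAs was not tested.

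Arms of this block also differed in the sequence that was most abundant. Of 64 conserved arms listed on both sides, 47 had the same main sequence in developing and adult libraries, 8 differed outside an unchanged seed, and 9 had another seed. The block, singled out after its values were seen, held 6 of the 9, out of its 9 arms on both sides, and the other 55 arms held 3. The clearest was miR-5105-3p, whose sequence is printed here because its start differed by 1 base between all 3 developing and all 6 adult libraries, which changes the seed in capitals.
miR-5105-3p in developing libraries: cCTTCTGAtcgaggccc
miR-5105-3p in adult libraries: cTTCTGATcgaggccc
miR-330-3p showed a shift of the same size. It started 1 base earlier in each of the 3 developing libraries than in each of the 5 adult libraries that listed it.
miR-330-3p at E90: gCAAAGCAcacggcctgcagag
miR-330-3p in day 180 replicate 3: cAAAGCACacggcctgcagaga
These are the most abundant sequences as deposited, 1 per arm and library, so how many copies had other starts was not analysed here.

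Among the 48 tested putative new arms, 17 were higher and 8 lower per read, 12 and 15 with TMM. Their median log2 fold change was 1.19 per read and -0.46 with TMM, so the typical direction among them depends on the scaling. PN-1631-3p was the most abundant of the higher ones and a leading arm of the developing side. Its overlapping entry PN-1633-3p holds the copies of several adult libraries, so both are given joined. Together they stood at 2819, 1331 and 446 RPM in developing libraries, against 11.4, 10.2 and 15.1 RPM at day 180 and 1.28, 0 and 0.639 RPM at 7 years. They held 10.4%, 6.95% and 4.27% of all copies in developing libraries and at most 0.543% in an adult one. The groups were far apart (edgeR log2 fold change 7.88 ± 1.36 SE, adjusted p = 0.000680). The PN-1631-3p entry alone had a log2 fold change of 9.52 ± 2.04 (SE, edgeR adjusted p = 0.00194, 7.95 with TMM). PN-24885174-5p, on chromosome 13 with the seed of miR-26b-5p, stood at 62.3, 74.5 and 19.6 RPM in developing libraries, against at most 4.73 RPM in adult ones (edgeR log2 fold change 4.51, adjusted p = 0.00417, 2.75 with TMM). The arms of PN-870046 were higher per read, with log2 fold changes of 2.74 for the 3p and 2.63 for the 5p arm, and were not called with TMM (adjusted p = 0.0888 and 0.166, edgeR).

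PN-7444591-3p, on the minus strand of chromosome 2 of Sscrofa10 at 7444591 to 7444852, was the clearest lower arm among the putative new ones. It stood at 6.15, 2.01 and 7.19 RPM in developing libraries, against 110 to 173 RPM at day 180 and 49.99 to 83.5 RPM at 7 years. The groups were far apart (edgeR log2 fold change -4.33 ± 0.73 SE, adjusted p = 0.0006, -6.00 with TMM). PN-30185188-3p, on chromosome 5, was listed in 1 developing library at 0.863 RPM, against 2.66 to 12.3 RPM in the 6 adult ones (edgeR log2 fold change -4.99, adjusted p = 0.0048). Joined with its overlapping entry it was at -4.15 (edgeR adjusted p = 0.00307). PN-69264044-3p, on chromosome 17, stood at 6.74, 9.84 and 14.4 RPM in developing libraries, against 20.7 to 56.9 RPM in adult ones (edgeR log2 fold change -1.78, adjusted p = 0.0186). Its adjusted p was 0.0810 without E90 and 0.0823 without day 0. The entry PN-151102665-5p, on chromosome 2, was called lower (edgeR adjusted p = 0.0276) and was listed in adult libraries alone, but overlapping entries hold copies of the developing libraries. The 4 entries joined stood at 3.97, 11.0 and 8.34 RPM in developing libraries, against 3.53 at the lowest, 4.90 at the median and 7.10 at the highest of the adult libraries. They overlapped between groups and were not called (edgeR log2 fold change 0.59, adjusted p = 0.402). Of the 11 entries called lower 5 had no copy in any developing library, but 4 of the 5 overlap an entry that developing libraries list. With entries joined, 2 of the 10 lower arms had no developing copy.

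Of the conserved arms that were not called per read, the 4 most abundant were miR-6529-5p, miR-5105-5p, miR-301a-3p, given above, and miR-1842-5p. miR-6529-5p stood at 257, 174 and 71.9 RPM in developing libraries, against 107 at the highest, a median of 42.3 and no copy in 7 years replicate 3 among adult ones (edgeR log2 fold change 1.84 ± 1.15 SE, adjusted p = 0.178). Without that replicate it was called (1.57, adjusted p = 0.0376). miR-5105-5p stood at 12.9, 32.7 and 38.3 RPM in developing libraries and 5.93 to 28.1 RPM in adult ones, and its estimate was 0.77 per read and -0.91 with TMM. miR-1842-5p stood at 2.97, 11.0 and 4.03 RPM in developing libraries and 1.60 to 10.6 RPM in adult ones, and its estimate was 0.31 per read and -1.44 with TMM. For these 2 arms the direction follows the scaling, and neither was called in either scaling. With a term per stage and TMM both were lower, at -1.10 and -1.44 (edgeR adjusted p = 0.0457 and 0.0403).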

How the data were processed

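Small RNA of 10 to 40 nt was gel purified and read individually on a Genome Analyzer II instrument from Illumina, per the labels' protocols. The deposited tables hold counts, whole copies of each arm in each library, per the file headers, with the high-quality reads and precursor positions on Sscrofa10. No source used here names the aligner or the miRNA caller. Empty cells (46.2% of conserved, 76.1% of putative new) were taken as 0, and those of the 426 putative new entries that repeated sequence and values were merged, leaving 395. Library size was the high-quality reads with no further factor. edgeR 4.0.16 in R 4.3.3 used filterByExpr (minimum count 10, minimum total 15), a robust quasi-likelihood fit and Benjamini-Hochberg adjustment at 0.05. TMM, DESeq2 1.42.0, other filters, stages and left-out libraries were alternatives. Single values were compared by two-sided exact permutation (scipy 1.17.1), which treats libraries of different ages as exchangeable. Arm balance used hairpins of at least 100 copies, in libraries of at least 10. The fit was tested on simulated data. Floors (3 copies per library) and intervals cover counting error only. Members and lists were chosen with earlier results of these data known. Named arms are the called ones with the highest mean level or next largest fold change, the most abundant uncalled ones, and up to 3 per list.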

Additional observations from a re-analysis of the deposited data

Results flagged for a closer look

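Among the 6 adult libraries, 1 stood apart from the others for 3 of the 46 values examined in this way, and chance alone flags about 1 in 20. miR-412-5p was highest in day 180 replicate 1 at 3.51 RPM, with the next adult library at 1.22 RPM. The entry PN-1631-3p was highest in the same library at 11.4 RPM, with the next at 0.639 RPM. Joined with the overlapping entry PN-1633-3p, day 180 stood at 11.4, 10.2 and 15.1 RPM, and replicate 1 no longer stood apart. miR-539-5p was listed in 1 adult library, day 180 replicate 3, at 0.332 RPM, which is 3 copies, and the others were at 0. The lowest developing values were above these adult ones for all 3 arms, at 16.1 RPM for miR-412-5p, 446 RPM for PN-1631-3p and 1.73 RPM for miR-539-5p.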

How the results depend on the processing

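The count of higher arms stayed within 1.5 times of 48 except with no filter (97 of 495), with at least 50 copies in 3 libraries (24, and 7 lower, of 38) and in the conserved table alone (31 and 3 of 43). Lower arms, 11 in all, numbered 19 with TMM, 17 with DESeq2 size factors, 21 with the DESeq2 test on its own factors, 22 with a term per stage and TMM (added after seeing the data), and 4 with 7 years alone as adult. Leaving out 1 library gave 45 to 65 higher and 4 to 13 lower arms, with the lowest count of lower arms, 4, without E90, then 6 without day 0 and 7 without day 30 or day 180 replicate 2. By stage means the log2 differences of the sums were 3.01, 3.15 and 2.31 for all, conserved and putative new arms, at the smallest possible exact p of 0.1. The difference in the share of the 10 most abundant arms, 2.49 percentage points, was -1.96 in the conserved table alone, and neither passed. The DLK1-DIO3 share, 8.76 points higher, was 5.61 to 13.0 points higher with 1 library left out. With a term per stage and TMM, miR-5105-5p was at -1.10 and miR-1842-5p at -1.44, and with overlapping entries joined PN-151102665-5p was at 0.59. Among other results of named arms and hairpins, 758 recomputed values had the same direction and call, 42 lost the call, 13 gained one and 3 reversed, those 3 being the ones just named. No paired analysis was possible because each of the 3 developing stages is 1 library, and which pigs went into which library was not stated. For an arm without a listed copy, a floor of 3 copies was assumed. That is 0.595 to 0.863 RPM in developing libraries and 0.245 to 0.806 RPM in adult ones. An empty entry does not itself bound the copies. PN-1631-3p was empty in day 180 replicates 2 and 3, where joining with PN-1633-3p gave 106 and 136 copies.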

Other observations

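Length and base composition were described for the arms by call. The listed sequence had a median of 22 nt among the 48 higher, the 11 lower and the 32 uncalled arms alike, and 40 of the 48, 10 of the 11 and 25 of the 32 were 20 to 24 nt long. It began with T in 33.3% of the higher, 45.5% of the lower and 31.2% of the uncalled arms, against 34.1% of the 91 tested.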
